A study of Mus musculus with 6 samples.

Results

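Endothelial cell genes, 10 in number, which mark the cells that line blood vessels, were examined in tumors of the Laser, PC-La and SePC-La groups. They were Pecam1, Cdh5, Kdr, Flt1, Tek, Tie1, Eng, Emcn, Vwf and Plvap, picked out by symbol among the 21899 genes of the table. The list was drawn up with earlier results of these data known. All 10 were listed and all had reads in every sample. The tumors were grown from LLC-luc cells, a Lewis lung carcinoma line that carries luciferase, injected under the skin near the left axilla of adult male C57BL/6 mice weighing 18 to 20 g. Every group was irradiated. The Laser group received light without a photosensitizer, the PC-La group received phycocyanin (PC), a light-absorbing protein of Spirulina, and in the SePC-La group this protein was enriched in selenium (SePC). The labels put each irradiation 4 h after an injection into the tumor, at 620 nm for 10 min, with injections every 5 days. The methods of the study give another wavelength and interval, and place the injections beneath the tumors. The light dose and intensity in those methods together need more than 10 min. Each group had 2 samples. The methods call the mice adult and give no age in numbers, no tumor without irradiation was analysed here, and nothing states that the samples of a group came from separate mice, so a p-value here measures only the spread between these samples. The tumors grew under the skin, so the vessels are those of this site and not of the lung.

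Endothelial cells join each other through VE-cadherin and PECAM-1, and they read growth signals through receptors on their surface. Vascular endothelial growth factor (VEGF) acts mainly through KDR, while FLT1 binds it tightly and holds it away from KDR. Angiopoietins act through TEK, also called TIE2, with TIE1 as its partner, and they set how stable or leaky a vessel is. Endoglin is a co-receptor for ligands of the TGF-β family. Tumor vessels depend on these signals, and light activation of a photosensitizer is known to injure vessels in many tumor models.

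The promoters of 2 members are shown because their genes lay at opposite ends of the pattern described further down: Tie1 followed the other members most closely over the 6 samples and Eng followed them least. The windows are chr4:118489800-118490099 (minus strand) for Tie1 and chr2:32646345-32646644 (plus strand) for Eng in the RefSeq annotation of GRCm38.p6, each with 250 bases before and 50 after the start of the gene, 5′ to 3′. The Tie1 start of RefSeq lies 212 bases from the outermost start in GENCODE M21. Capitals mark the core GGAA of the motif bound by ETS factors, a family active in endothelial cells, and its reverse complement TTCC, or the longer AGGAAG and CTTCCT, which contain that core.
Tie1: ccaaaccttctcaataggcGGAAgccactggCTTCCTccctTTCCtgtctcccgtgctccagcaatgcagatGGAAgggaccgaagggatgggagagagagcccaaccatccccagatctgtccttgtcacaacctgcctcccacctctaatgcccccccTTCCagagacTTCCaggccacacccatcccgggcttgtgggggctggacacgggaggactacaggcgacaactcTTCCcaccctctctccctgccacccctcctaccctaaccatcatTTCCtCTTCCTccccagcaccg
Eng: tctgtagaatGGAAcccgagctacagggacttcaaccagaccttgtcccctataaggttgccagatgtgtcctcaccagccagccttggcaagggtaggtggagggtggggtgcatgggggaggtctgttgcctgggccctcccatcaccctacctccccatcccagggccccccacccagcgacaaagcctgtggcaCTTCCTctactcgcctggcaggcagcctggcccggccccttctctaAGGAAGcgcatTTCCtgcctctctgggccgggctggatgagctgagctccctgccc

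The Tie1 window held 9 matches to the core and the Eng window 4, and each held 2 of the longer motif. Promoters were matched for 6 of the 10 members. All 6 held the core, which 96.0% of 32851 promoters of 27025 genes of the same length also held. The longer motif was in 4 of the 6, namely Flt1, Tie1, Eng and Emcn, and in 35.4% of all promoters. These matches are letters in a window and say nothing of binding.

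Expression was read as FPKM, a count scaled to the exon length of the gene and to the total count, so that levels of different genes can be compared per length. The samples held between 14447792 and 17649489 recovered reads. Laser replicate 2 stood apart from the other 5 samples in its muscle and erythroid genes. Over all tested genes it correlated most with SePC-La replicate 1, at 0.961, and at 0.946 with Laser replicate 1. The summed level of 9 skeletal muscle genes was 171 FPKM there, 24.4 in Laser replicate 1 and between 1.77 and 7.27 in the other groups. That of 8 erythroid genes was 127 and 13.7 FPKM in Laser tumors, 264 and 362 in PC-La tumors, and 614 and 933 in SePC-La tumors. Both sums thus also differed between Laser and the other groups, and their part in the values of the members was not tested. SePC-La replicate 1 had the lowest summed level of 8 fibroblast genes, 131 FPKM, where the others had between 330 and 2030. Lung epithelial genes were near 0, with sums between 0.679 and 1.74 FPKM over 6 genes, and keratinocyte genes with sums between 0.329 and 0.666 FPKM over 7 genes. In bulk tumor RNA, fewer endothelial cells and less RNA of these genes per cell cannot be told apart.

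The 10 genes spanned a wide range of levels. Averaged over the 6 samples, Eng (chromosome 2 from 32646595 to 32682669 in GRCm38) stood highest at 23.3 FPKM, followed by Plvap at 18.4, Cdh5 at 10.1, Pecam1 at 8.48, Tie1 at 3.19, Flt1 at 2.03, Emcn at 1.71, Kdr at 1.28, Vwf at 1.04 and Tek at 0.609. The ranges of several neighbours in this order overlapped. Compared within each sample, Cdh5 was nevertheless above Pecam1, Tie1 above Flt1 and Vwf above Tek in all 6 samples. The other overlapping pairs changed order between samples. The values of Eng and Plvap overlapped, as did those of Cdh5 and Pecam1, of Tie1 and Flt1, of Flt1 and Emcn, of Emcn and Kdr, of Kdr and Vwf, and of Vwf and Tek. Every value of Plvap was above every value of Cdh5, and every value of Pecam1 was above every value of Tie1. The highest sample of a gene was between 1.48 times (Plvap) and 2.23 times (Vwf) its lowest.

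Both junction genes had their highest samples outside the Laser group. Cdh5 (chromosome 8 from 104101625 to 104144511) encodes VE-cadherin, which holds endothelial cells together. Its level was 8.46 and 6.57 FPKM in Laser tumors, 9.24 and 14.1 in PC-La tumors, and 12.8 and 9.47 in SePC-La tumors. Both Laser values lay below the other 4. Against Laser, the mean was 1.55 times as high in PC-La, a log2 difference of 0.55 (95% interval -0.03 to 1.14, unadjusted p of 0.0586, adjusted p = 0.753 from limma), and 1.48 times as high in SePC-La, a log2 difference of 0.51 (-0.07 to 1.09, unadjusted p of 0.0776, adjusted p = 0.443 from limma). Neither passed the test. Without Laser replicate 2 these differences were 0.39 and 0.35. The PC-La difference was 0.28 without PC-La replicate 2 and 0.83 without PC-La replicate 1, and the SePC-La difference 0.31 without SePC-La replicate 1.

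Pecam1 (chromosome 11 from 106654217 to 106750628) encodes CD31, an adhesion molecule of endothelial cells that platelets and some leukocytes also carry. It stood at 7.65 and 6.12 FPKM in Laser tumors, 7.54 and 8.68 in PC-La tumors, and 12.2 and 8.63 in SePC-La tumors. The SePC-La samples were above both Laser samples, and the PC-La samples overlapped both groups. The difference between SePC-La and Laser was 0.52 on the log2 scale (standard error 0.20, 95% interval 0.05 to 1.00), with an unadjusted p of 0.0355 and an adjusted p of 0.388 from limma. It fell short of the criterion of the study, an absolute log2 difference over 1 with an unadjusted p under 0.05. The difference was 0.29 (an unadjusted p of 0.194 from limma) without SePC-La replicate 1 and 0.38 (an unadjusted p of 0.143 from limma) without Laser replicate 2. The 6 marker genes of leukocytes had summed levels of 276 and 235 FPKM in Laser tumors, 354 and 387 in PC-La tumors, and 229 and 361 in SePC-La tumors, and their part in the Pecam1 values was not tested.

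**Figure D1:**
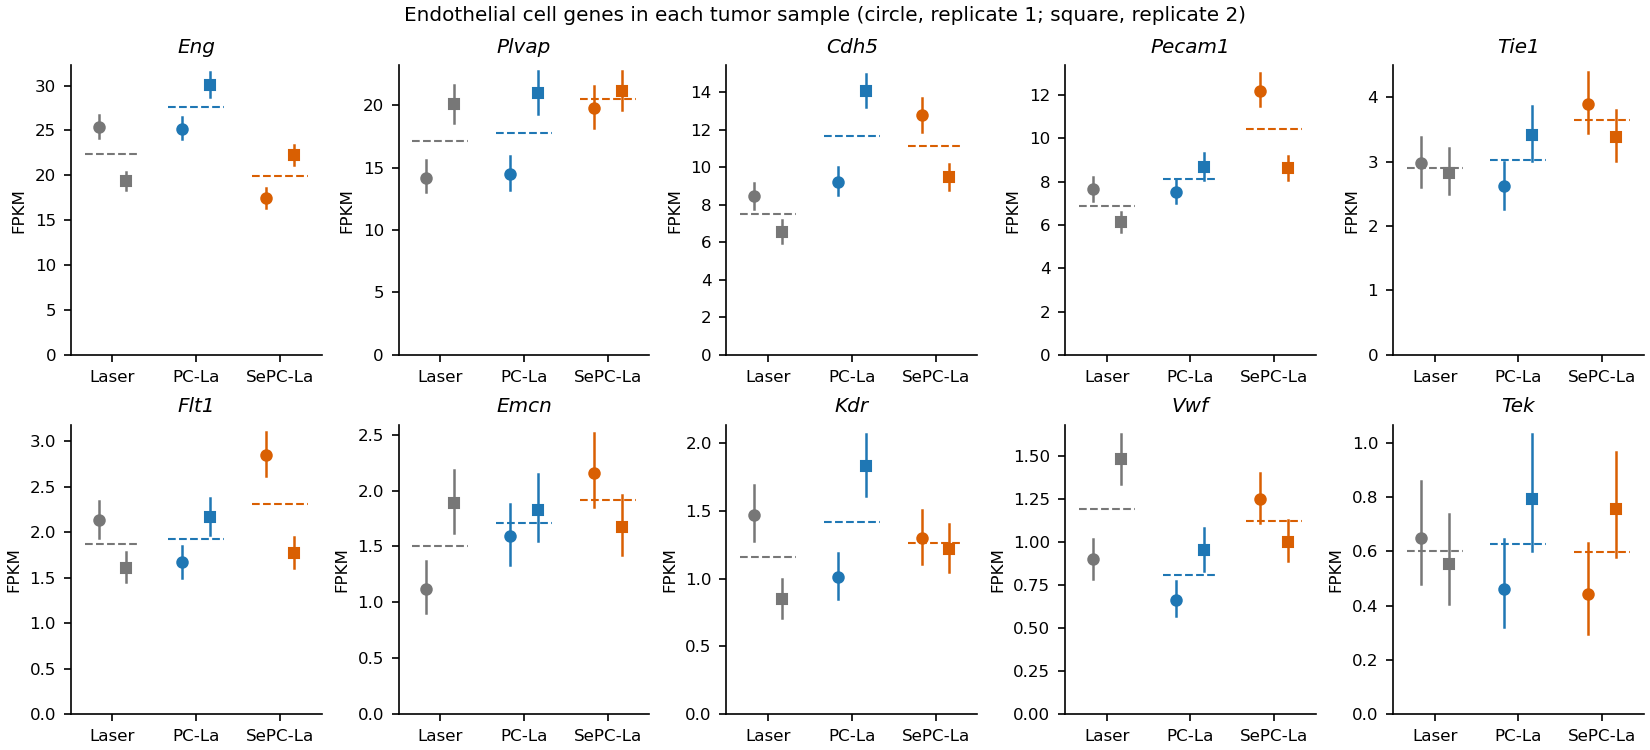
FPKM of the 10 endothelial cell genes in each of the 6 samples, 1 panel a gene with its own axis from 0. Circles are replicate 1 and squares replicate 2, vertical lines are 95% Poisson intervals of the recovered reads, and dashed lines are group means. Both Laser values of Cdh5 lie below the other 4, while most genes overlap between groups.

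The groups overlapped for both receptors of VEGF. Kdr (chromosome 5 from 75932827 to 75978458), the main signalling receptor, had 1.47 and 0.847 FPKM in Laser tumors, 1.01 and 1.83 in PC-La tumors, and 1.3 and 1.22 in SePC-La tumors. Flt1 (chromosome 5 from 147561604 to 147726011) stood at 2.13 and 1.61 FPKM in Laser tumors, 1.67 and 2.17 in PC-La tumors, and 2.85 and 1.77 in SePC-La tumors. Flt1 was above Kdr in every sample, with a ratio of Kdr to Flt1 between 0.457 (SePC-La replicate 1) and 0.843 (PC-La replicate 2). Log2 differences between groups ran from -0.08 to 0.16 for Kdr and from 0.02 to 0.19 for Flt1, each smaller than its standard error of 0.25 or 0.22.

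The angiopoietin receptor pair was expressed at low levels. Tie1 (chromosome 4 from 118471191 to 118490061) stood at 2.98 and 2.83 FPKM in Laser tumors, 2.62 and 3.42 in PC-La tumors, and 3.90 and 3.39 in SePC-La tumors. Both SePC-La values were above both Laser values. The log2 difference was 0.25 with a standard error of 0.16 and did not pass (adjusted p = 0.541 from limma). Tek (chromosome 4 from 94739289 to 94874976) stood at 0.648 and 0.553 FPKM in Laser tumors, 0.462 and 0.794 in PC-La tumors, and 0.441 and 0.754 in SePC-La tumors, from 30 to 62 reads a sample. It was the single member under the filter of a mean of 1 FPKM, so 9 of the 10 were tested. Fitted without the filter, its log2 differences were between -0.03 and 0.02 with 95% intervals from -0.45 to 0.44 across the 3 comparisons.

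On average, Eng was lowest in SePC-La. It had 25.4 and 19.4 FPKM in Laser tumors, 25.2 and 30.1 in PC-La tumors, and 17.5 and 22.3 in SePC-La tumors. Both SePC-La samples were below both PC-La samples, and Laser overlapped both groups. The difference of SePC-La from PC-La was -0.46 on the log2 scale (standard error 0.19), with a 95% interval from -0.92 to just below 0, an unadjusted p of 0.0483 and an adjusted p of 0.204 from limma. It was -0.30 (an unadjusted p of 0.234 from limma) without SePC-La replicate 1 and -0.34 (an unadjusted p of 0.227 from limma) without PC-La replicate 2. Of its 4048 exon bases, 61 are shared with Fpgs, and no other member shares exon bases with another gene.

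The remaining members mark kinds or states of vessels. Plvap (chromosome 8 from 71497765 to 71511752) encodes a protein of the diaphragms of fenestrated capillaries, and had 14.2 and 20.1 FPKM in Laser tumors, 14.5 and 21 in PC-La tumors, and 19.8 and 21.1 in SePC-La tumors. Emcn (chromosome 3 from 137341067 to 137432185) encodes endomucin of veins and capillaries, with 1.12 and 1.89 FPKM in Laser tumors, 1.59 and 1.83 in PC-La tumors, and 2.16 and 1.67 in SePC-La tumors. Vwf (chromosome 6 from 125546774 to 125686679) encodes the von Willebrand factor, which binds platelets, and had 0.899 and 1.48 FPKM in Laser tumors, 0.665 and 0.953 in PC-La tumors, and 1.25 and 1.00 in SePC-La tumors. Plvap and Emcn overlapped in all 3 comparisons. Both SePC-La values of Vwf lay above both PC-La values, with a log2 difference of 0.23 (standard error 0.22, adjusted p = 0.525 from limma), and Vwf was the member with the lowest difference of PC-La from Laser, -0.27 (95% interval -0.80 to 0.26).

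Across the 9 tested members, none met the criterion in any comparison and none had an adjusted p under 0.05 from limma. None of the 10853 genes tested had one either, and voom on the recovered reads also gave 0 members and 0 genes. For PC-La against Laser, the criterion was met by 1.29% of all genes. The members' median log2 difference was 0.13, against -0.001 over all genes, and 8 of 9 were above 0, where 49.9% of all genes were. Without PC-La replicate 2 the median was -0.09. An unadjusted p under 0.05 was reached by 0 members and by 5.78% of all genes. The member Cdh5 had non-overlapping groups with PC-La higher, as did 20.4% of all genes, and 0 members had PC-La lower, as did 21.6%.

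For SePC-La against Laser, 0.682% of all genes met the criterion. The members' median was 0.23, against -0.065 over all genes, and 7 of 9 were above 0, where 40.2% of all genes were. With 1 sample left out the median was between 0.11 and 0.33. An unadjusted p under 0.05 was reached by 1 member, Pecam1, and by 12.1% of all genes. Groups did not overlap for 3 members with SePC-La higher (Cdh5, Pecam1 and Tie1), against 15% of all genes, and for 0 members with SePC-La lower, against 25.6%. Both of these comparisons use the same Laser samples and are not independent of each other.

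For SePC-La against PC-La, 2.98% of all genes met the criterion. The members' median was 0.17, against -0.074 over all genes, and 6 of 9 were above 0, where 41.5% of all genes were. Without SePC-La replicate 1 the median was -0.02. An unadjusted p under 0.05 was reached by 1 member, Eng, and by 24.3% of all genes. Vwf was the 1 member with non-overlapping groups and SePC-La higher, against 26.0% of all genes, and Eng the 1 member with SePC-La lower, against 39.5%. The 95% intervals of single members reached from 0.39 to 0.60 to either side of the estimate, so a smaller difference was not detectable with 2 samples a group.

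**Figure D2:**
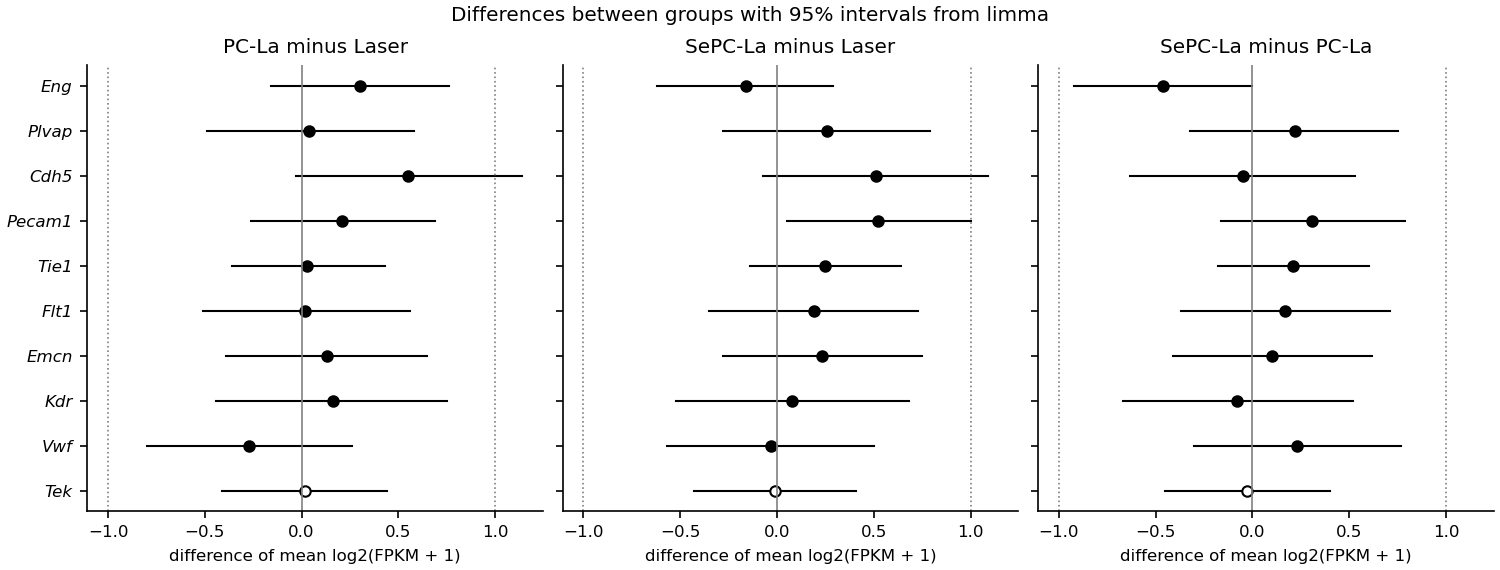
Differences between groups in mean log2(FPKM + 1) for each gene, with 95% intervals from limma. Dotted lines mark a difference of 1 in either direction, and the open circle is Tek, fitted without the filter on low values. The interval leaves out 0 for Pecam1 between SePC-La and Laser and for Eng between SePC-La and PC-La, with unadjusted p-values.

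All 10 members were higher in PC-La replicate 2 than in PC-La replicate 1, with ratios between 1.15 and 1.82, and 9 of them differed beyond counting error, as did 39.7% of the tested genes with recovered reads. Over all tested genes, 50.1% were higher in that sample and the median log2 difference was 0.0, against 0.27 for the members. The PC-La samples were otherwise the closest pair, with an SD of 0.20 over genes in this log2 difference, against 0.52 in Laser and 0.39 in SePC-La.

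In Laser, 3 members were higher in replicate 2 (Emcn, Vwf and Plvap) and 7 lower, with ratios from 0.575 for Kdr to 1.69 for Emcn. In SePC-La, 3 were higher in replicate 2 (Tek, Eng and Plvap) and 7 lower, with ratios from 0.622 for Flt1 to 1.71 for Tek. Of all tested genes, 46.8% were higher in replicate 2 in Laser and 55.6% in SePC-La. Counting error was exceeded by 8 members in Laser, where 68.2% of genes exceeded it, and by 7 in SePC-La, where 60.6% did. Counting intervals treat reads as independent molecules, and the libraries carry no molecular identifiers as far as the sources used here say.

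**Figure D3:**
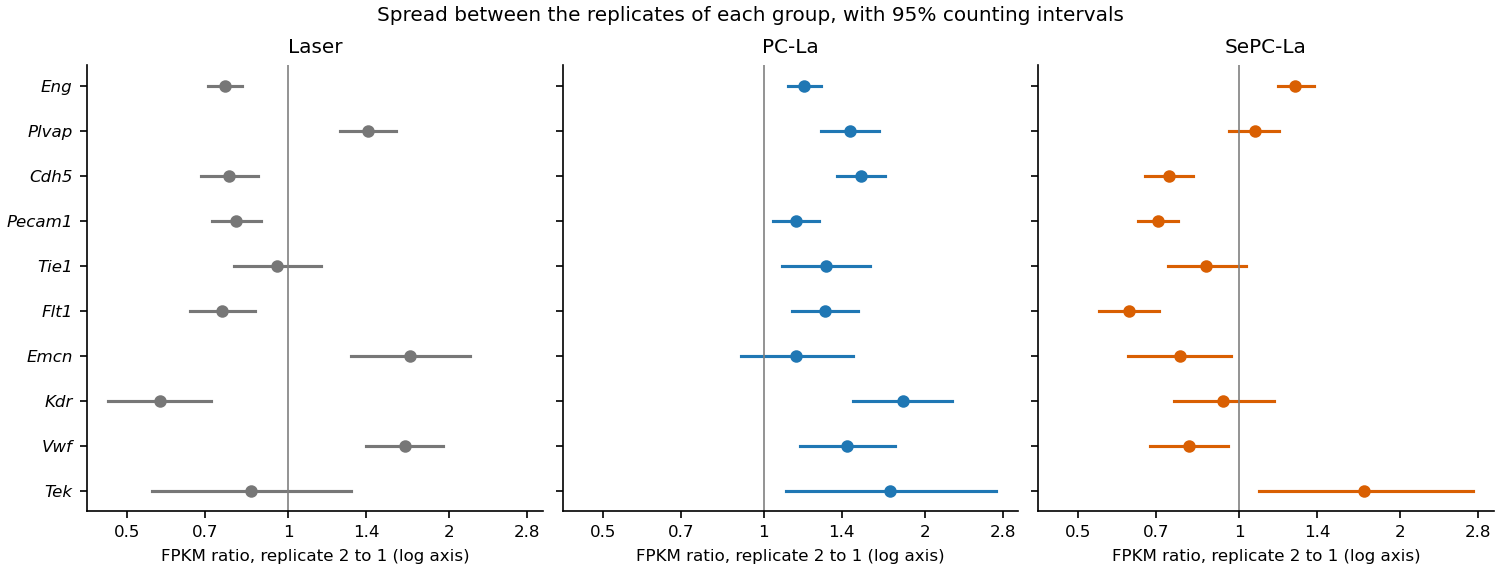
Ratio of FPKM in replicate 2 to replicate 1 of each group for the 10 genes, on a log axis with 95% counting intervals. All 10 ratios in PC-La lie above 1, between 1.15 and 1.82, while Laser and SePC-La each have 3 above 1 and 7 below.

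Summed over the 10 genes, the level was 65.1 and 61.4 FPKM in Laser tumors, 64.5 and 84.8 in PC-La tumors, and 74.2 and 71.3 in SePC-La tumors. The group means were 63.2 ± 2.62, 74.7 ± 14.4 and 72.8 ± 2.05 FPKM (SD, n = 2 each). Eng alone made up a large part of these sums. Without it they were 39.6 and 42.0 FPKM in Laser tumors, 39.3 and 54.7 in PC-La tumors, and 56.7 and 49.0 in SePC-La tumors. PC-La replicate 1 was thus within the Laser range for both sums, or just below it, and the higher PC-La mean came from replicate 2. The highest sample was PC-La replicate 2 for 4 members, SePC-La replicate 1 for 4, Laser replicate 2 for 1 and SePC-La replicate 2 for 1.

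Each member was also set against the mean of the other 9 over the 6 samples, as a description, since the points share their libraries. Pearson's r was 0.88 for Tie1, 0.79 for Cdh5, 0.64 for Pecam1, 0.63 for Kdr, 0.62 for Flt1 and 0.57 for Plvap. It was 0.37 for Emcn, 0.22 for Tek, 0.07 for Vwf and -0.15 for Eng.

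The ratio of Eng to Pecam1 was taken after these values were seen and was not tested. It was 3.33 and 3.17 in Laser tumors, 3.35 and 3.47 in PC-La tumors, and 1.43 and 2.58 in SePC-La tumors. The ratio of Eng to Cdh5 was 3.01 and 2.95 in Laser tumors, 2.73 and 2.14 in PC-La tumors, and 1.37 and 2.35 in SePC-La tumors. Relative to either junction gene, Eng was lowest in SePC-La replicate 1. Endoglin is also made by stromal cells and macrophages. The summed level of 8 fibroblast genes was 1420 and 330 FPKM in Laser tumors, 2030 and 1790 in PC-La tumors, and 131 and 731 in SePC-La tumors, and that of 8 macrophage genes was 1320 and 2100, 1570 and 1710, and 971 and 1450 FPKM. All 16 of these genes passed the filter on low values. Both sums were lowest in SePC-La replicate 1, and their part in the Eng values was not tested.

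**Figure D4:**
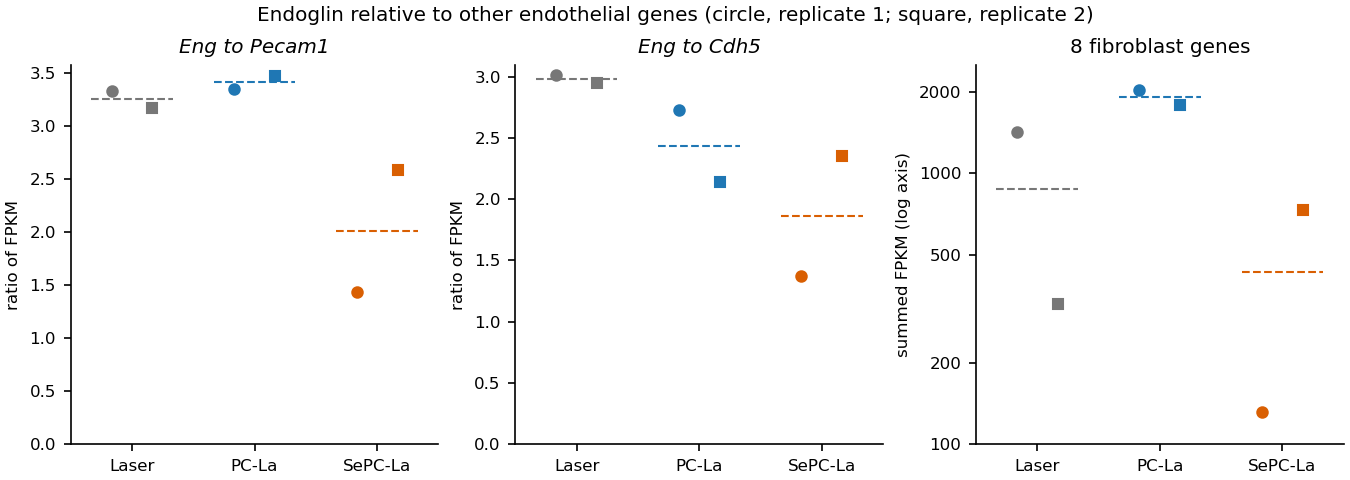
Ratio of Eng to Pecam1 and of Eng to Cdh5 (FPKM over FPKM) and the summed FPKM of 8 fibroblast genes on a log axis, in each sample. Circles are replicate 1, squares replicate 2 and dashed lines group means. SePC-La replicate 1 has the lowest value in all 3 panels, at 1.43, 1.37 and 131 FPKM.

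The genes whose profile was most like the mean of the members' standardized values were found over the 6 samples among 10844 other tested genes. There were 15 with a Pearson's r above 0.9, with Esam first at 0.9596. Esam encodes an endothelial adhesion molecule. The others were Gpr35, Farsb, Gm17374, Mettl6, Nomo1, Ccdc51, Tmem81, Smg9, Slc11a1, Bloc1s4, Robo4, Gtpbp1, Smarca4 and Hnrnph2. Robo4, a guidance receptor of endothelial cells, ranked 12 at 0.9164. Of 24 other endothelial genes that were tested, 2 were among these 15, and their median r was 0.51, against -0.11 over all genes.

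The ligands that the VEGF receptors bind were taken from a list beside their other receptors. Of 8 VEGF ligands and further receptors, 7 were tested, and Flt4 lay under the filter. For PC-La against Laser, 0 of 7 met the criterion, and their median log2 difference was 0.26. Leaving out Laser replicate 1 gave a median of 0.89, leaving out replicate 2 gave -0.19, and quantile normalization gave 0.08. The gene nearest the criterion was Vegfc, a ligand known for lymphatic vessels, with 6.86 and 4.90 FPKM in Laser tumors, 13.7 and 10.3 in PC-La tumors, and 7.24 and 5.17 in SePC-La tumors. Both PC-La values lay above the other 4, and the difference from Laser was 0.92 (unadjusted p of 0.00584, adjusted p = 0.645 from limma), past the criterion with a pseudocount of 0.1 (1.03) and with voom (1.05). For SePC-La against Laser 1 was higher and 0 lower, with a median of 0.16, while without Laser replicate 2 it was 0 higher and 2 lower. For SePC-La against PC-La 1 was higher and 2 lower, with a median of 0.37. Vegfa had 32.8 and 15.5 FPKM in Laser tumors, 18.9 and 16.2 in PC-La tumors, and 60.1 and 45.6 in SePC-La tumors. It met the criterion between SePC-La and PC-La, at 1.53 (standard error 0.35, unadjusted p of 0.00503, adjusted p = 0.126 from limma), and did so in all 8 alternatives and with each of the 6 samples left out. Against Laser it met it at 1.18, and not without Laser replicate 2 (0.66) or without SePC-La replicate 1. Pgf, another ligand gene, had 4.73 and 0.546 FPKM in Laser tumors, 2.34 and 2.81 in PC-La tumors, and 10.4 and 5.76 in SePC-La tumors. Its difference of SePC-La from Laser was 1.56 (unadjusted p of 0.0547, adjusted p = 0.413 from limma). That difference met the criterion with voom (2.30), quantile normalization (1.53) and the replicate block (1.56). Without Laser replicate 1 it was 2.5, so its size leaned on Laser replicate 2, whose 0.546 FPKM was the lowest of all samples. The difference of SePC-La from PC-La was 1.3 (unadjusted p of 0.0929, adjusted p = 0.266 from limma). It met the criterion with only the 4 samples compared and with quantile normalization (1.46).

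Vegfd, a ligand related to Vegfc, had 26.7 and 11.4 FPKM in Laser tumors, 31.0 and 29.0 in PC-La tumors, and 8.16 and 16.9 in SePC-La tumors. Nrp1, a co-receptor of KDR that stromal cells also carry, had 5.88 and 2.98 FPKM in Laser tumors, 6.04 and 6.73 in PC-La tumors, and 1.64 and 3.40 in SePC-La tumors. Both were lower in SePC-La than in PC-La at the criterion, with differences of -1.27 (adjusted p = 0.188 from limma) and -1.11 (adjusted p = 0.147 from limma) on the log2 scale. Without SePC-La replicate 1 neither met it, nor did Vegfd without either PC-La sample or Nrp1 without PC-La replicate 2. Vegfd also lost the criterion with the replicate block and Nrp1 with quantile normalization (-0.96). Both genes had their lowest value in SePC-La replicate 1, as the fibroblast sum did, and the part of the fibroblast sum in this was not tested.

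Of 5 genes around the angiopoietin receptors, 3 were tested, and 1 met the criterion, higher in SePC-La against either group, while 0 did so between PC-La and Laser. This was Angptl4, an angiopoietin-like secreted protein that inhibits lipoprotein lipase and does not bind TEK. It had 8.53 and 2.48 FPKM in Laser tumors, 5.46 and 3.68 in PC-La tumors, and 19.9 and 21.8 in SePC-La tumors. Its log2 difference was 1.92 against Laser (adjusted p = 0.376 from limma) and 1.99 against PC-La (adjusted p = 0.128 from limma), and both met the criterion with each sample left out. The medians of the 3 genes were 0.16, 0.98 and 0.82 for PC-La against Laser, SePC-La against Laser and SePC-La against PC-La. The first was 0.66 without Laser replicate 1, and the other two were 0.52 and 0.36 without SePC-La replicate 1. The TEK ligand gene Angpt2 had 4.72 and 5.51 FPKM in Laser tumors, 5.53 and 6.10 in PC-La tumors, and 15.6 and 7.75 in SePC-La tumors. Both SePC-La values lay above the other 4, and the log2 difference from Laser was 0.98 (unadjusted p of 0.0156, adjusted p = 0.376 from limma), just under the criterion. It was past the criterion with voom (1.08), quantile normalization (1.07), median-ratio scaling (1.04) and a pseudocount of 0.1 (1.09). Without SePC-La replicate 1, which held the 15.6 FPKM, the difference was 0.52. Angpt1, another ligand gene, had 1.88 and 0.218 FPKM in Laser tumors, 2.86 and 2.27 in PC-La tumors, and 0.319 and 1.2 in SePC-La tumors. Its difference of SePC-La from PC-La was -1.06 (unadjusted p of 0.0572, adjusted p = 0.218 from limma), and it met the criterion with only the 4 samples compared.

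Among 36 other endothelial genes, 24 were tested. For PC-La against Laser 1 was higher and 0 lower, and the median log2 difference was 0.23. The gene was Ecscr, an endothelial surface protein, with 5.08 and 2.26 FPKM in Laser tumors and 7.34 and 8.81 in PC-La tumors, a change of 1.02 (adjusted p = 0.753 from limma) that lost the criterion without Laser replicate 2, without PC-La replicate 2 and with quantile normalization (0.99), and was 0.57 at its lowest with a sample left out. For SePC-La against Laser 2 were higher and 0 lower, with a median of 0.34, and for SePC-La against PC-La 2 were higher and 0 lower, with a median of 0.17. The last median was -0.05 without PC-La replicate 1, and 0 genes met the criterion there without SePC-La replicate 1. In both comparisons the 2 genes were Apln and Esm1, which are known from sprouting vessels. The cells that expressed them here were not examined, and Apln averaged 24.3 FPKM, above Eng, the highest member, at 23.3. Apln, the ligand apelin, had 15.1 and 10.2 FPKM in Laser tumors, 15.4 and 18.7 in PC-La tumors, and 56.0 and 30.1 in SePC-La tumors, and its difference was 1.65 from Laser (adjusted p = 0.376 from limma) and 1.23 from PC-La (adjusted p = 0.134 from limma). The difference from Laser met the criterion with each sample left out. The difference from PC-La did not without SePC-La replicate 1, at 0.79. Esm1 had 1.46 and 2.05 FPKM in Laser tumors, 1.86 and 1.72 in PC-La tumors, and 8.85 and 2.95 in SePC-La tumors. Its differences of 1.19 and 1.16 rested on SePC-La replicate 1, and were 0.53 and 0.50 without it. Neither met the criterion with voom on the recovered reads, a limma method for counts. Cldn5, a junction gene of this list, had 3.68 and 7.32 FPKM in Laser tumors, 5.96 and 7.5 in PC-La tumors, and 10.8 and 10.5 in SePC-La tumors. Its difference of SePC-La from Laser was 0.90 (unadjusted p of 0.0158, adjusted p = 0.376 from limma). It was past the criterion with a pseudocount of 0.1 (1.02) and with voom (1.0). In that comparison 19 of the 24 were above 0 and 5 below, where 40.2% of all genes were above 0.

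**Figure D5:**
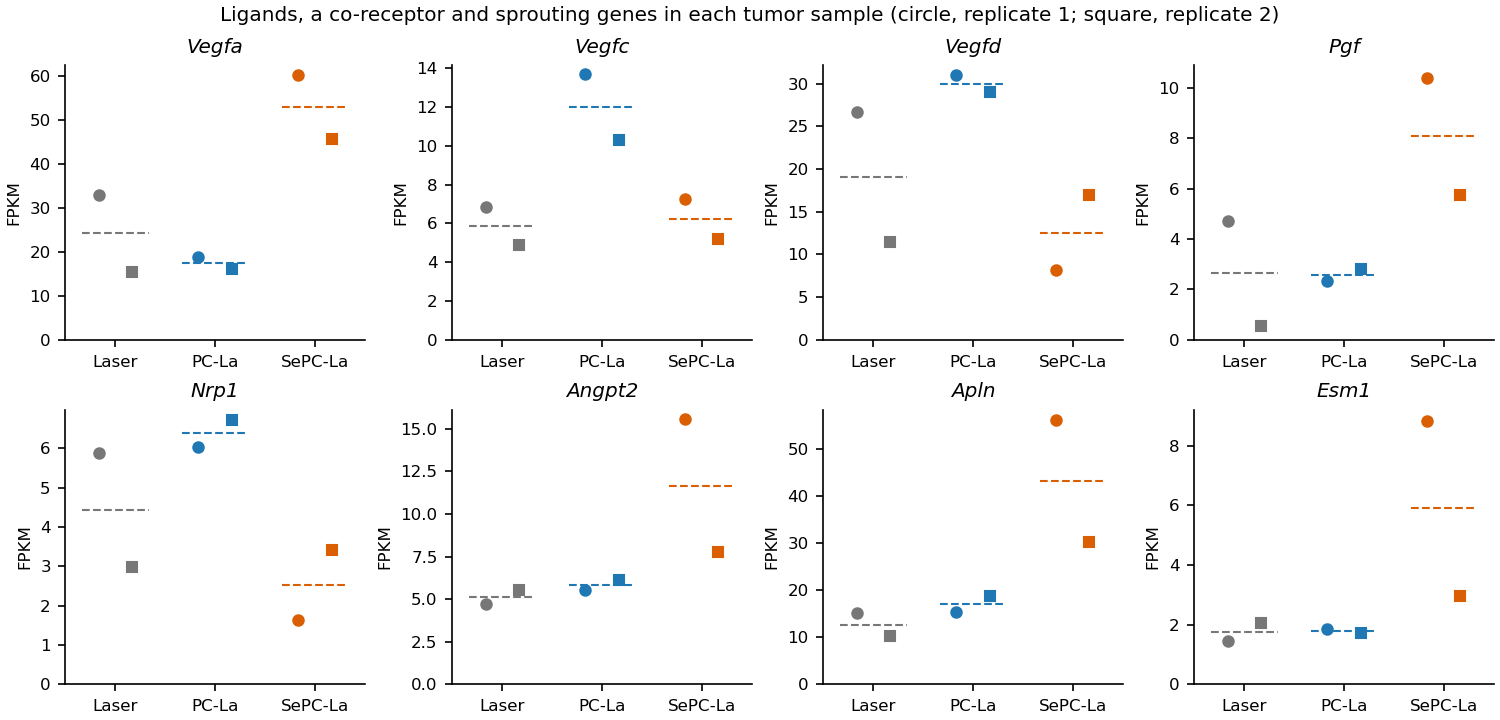
FPKM of VEGF ligands (Vegfa, Vegfc, Vegfd, Pgf), the co-receptor Nrp1, the TEK ligand Angpt2, and Apln and Esm1 of the other endothelial genes. Each sample is shown, 1 panel a gene with its own axis from 0. Circles are replicate 1, squares replicate 2 and dashed lines group means. Both SePC-La values of Vegfa, Pgf, Angpt2, Apln and Esm1 lie above the other 4, and Esm1 is highest in SePC-La replicate 1 at 8.85 FPKM.

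Of 13 genes of endoglin and Notch signalling in vessels, 11 were tested, and 1 met the criterion, in SePC-La against PC-La. Id1, a target of the receptors that endoglin serves, had 12.9 and 14.3 FPKM in Laser tumors, 11.7 and 8.53 in PC-La tumors, and 19.2 and 28.5 in SePC-La tumors. The difference from PC-La was 1.15 (adjusted p = 0.126 from limma), between 0.87 and 1.42 with a sample left out, and it lost the criterion without PC-La replicate 2 or SePC-La replicate 2. In PC-La against Laser 0 met the criterion, but 1 did with a pseudocount of 0.1 and with voom, and 3 without Laser replicate 1. With those first settings it was Acvrl1, named after its values were seen, which encodes a receptor that endoglin serves. It had 2.92 and 2.55 FPKM in Laser tumors, 4.79 and 6.71 in PC-La tumors, and 3.75 in both SePC-La tumors, with a difference of PC-La from Laser of 0.84 (unadjusted p of 0.00261, adjusted p = 0.497 from limma). The medians over the 11 genes were 0.29, 0.29 and -0.21 in the order given for the angiopoietin genes. In SePC-La against PC-La, 4 of the 11 were above 0 and 7 below, where 41.5% of all genes were above 0. Id3 went the other way from Id1, with 52.0 and 9.71 FPKM in Laser tumors, 65.0 and 47.4 in PC-La tumors, and 14.4 and 37.5 in SePC-La tumors. Its difference from PC-La was -1.22 (unadjusted p of 0.227, adjusted p = 0.422 from limma). Id3 met the criterion, lower, with only the 4 samples compared.

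Neighbouring cells of the vessel were counted in the same way. Of 11 genes of pericytes and smooth muscle, 5 were tested and 0 met the criterion in any comparison. The highest were Acta2, with 9.33 and 3.84 FPKM in Laser tumors, 8.97 and 11.5 in PC-La tumors, and 9.71 and 15.2 in SePC-La tumors, and Rgs5, with 7.17 and 5.52, 7.61 and 8.20, and 3.58 and 4.90. Both SePC-La values of Rgs5 lay below the other 4. Its difference of SePC-La was -0.78 from PC-La (unadjusted p of 0.00477, adjusted p = 0.126 from limma). From Laser it was -0.49 (unadjusted p of 0.0351, adjusted p = 0.388 from limma). Between SePC-La and PC-La, 3 of the 5 were above 0 and 2 below, where 41.5% of all genes were above 0. With voom, Acta2 met the criterion in SePC-La against Laser (1.07). With a pseudocount of 0.1, Des was lower at the criterion in both other groups than in Laser (-2.94 each). Des, which skeletal muscle also expresses, had 1.42 and 17.6 FPKM in Laser tumors and between 0.461 and 0.717 in the other 4, so its Laser level rested on replicate 2, the sample with the highest sum of muscle genes. Of 4 adhesion molecules that inflamed endothelium makes, 3 were tested and 0 met it. Sele, which encodes E-selectin, had 2.01 and 0.739 FPKM in Laser tumors, 2.72 and 3.56 in PC-La tumors, and 3.68 and 2.07 in SePC-La tumors. Its difference of PC-La from Laser was 0.85 (unadjusted p of 0.0386, adjusted p = 0.753 from limma), and it met the criterion with a pseudocount of 0.1 (1.27) and with voom (1.37). Without Laser replicate 1 the difference was 1.24, so its size leaned on Laser replicate 2, whose 0.739 FPKM was the lowest of all samples. Icam1 stood between 2.64 (Laser replicate 2) and 4.48 FPKM (PC-La replicate 2). Vcam1, the highest of them, had 27.9 and 12.8 FPKM in Laser tumors, 19.0 and 21.8 in PC-La tumors, and 17.5 and 27.6 in SePC-La tumors. Of 5 lymphatic endothelial genes, 2 were tested, and Prox1, the defining factor of that lineage, was at 0 in 5 of 6 samples. Pdpn, which fibroblasts and tumor cells also express, was higher in SePC-La than in PC-La at the criterion (1.01, adjusted p = 0.0763 from limma), and at 1.00 without PC-La replicate 1 it did not meet it. It had 7.18 and 7.55 FPKM in Laser tumors, 3.66 and 3.79 in PC-La tumors, and 8.61 and 8.48 in SePC-La tumors.

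Platelets and the cells that make them also express Pecam1 and Vwf. Of 10 platelet genes 2 passed the filter, Pf4 and Ppbp, and the summed level of the 10 was 76.6 and 91.0 FPKM in Laser tumors, 20.9 and 19.1 in PC-La tumors, and 92.4 and 147 in SePC-La tumors. The mean of Vwf was lowest in PC-La too, with values that overlapped those of Laser, while the mean of Pecam1 was lowest in Laser. The sums were nearly all Pf4 and Ppbp, and the other 8 genes were at 1.4 FPKM or less in every sample. Among those Itga2b, which encodes a platelet integrin, did not follow the sum, with 1.4 and 0.675 FPKM in Laser tumors, 1.28 and 0.907 in PC-La tumors, and 0.546 and 0.756 in SePC-La tumors. The defining platelet genes Gp9 and Gp1bb were at or near 0, at most 0.322 FPKM for Gp9 and 0 in every sample for Gp1bb. The part of platelets in the Vwf values was not tested.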

How the data were processed

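Total RNA of the 6 tumor samples (2 per group) was sequenced on an Illumina instrument. The authors deposited 1 table of normalized values, here read as FPKM. The submitters' processing notes name HISAT2 2.0.5, HTSeq 0.9.1, DESeq 1.30.0 and the build mm9, without their roles. Multiplied by merged exon lengths of GENCODE M21 (GRCm38), the values gave whole reads, within 0.02, in all 6 samples for 97.8% of genes, and coordinates are from that annotation. The 10853 genes whose mean reached 1 FPKM were fitted on log2(FPKM + 1), a scale that understates changes of low genes, with limma 3.58.1 in R 4.3.3 (trend, robust, group means, all 6 samples), with Benjamini-Hochberg adjustment over all of them. The script was tested on simulated data. The members and the lists of other genes were chosen with earlier results of these data known. Named from a list were the genes that met the criterion (absolute log2 difference over 1, unadjusted p under 0.05) or else the 2 highest (lists of other cell types are given by their sums), beside the 15 genes most like the members; other genes named were chosen after their values were seen. Alternatives were a pseudocount of 0.1, no filter, a minimum of 5 FPKM, median-ratio scaling, quantile normalization, only the 4 samples compared, the replicate number as a block, voom on the recovered reads, and each sample left out, where the lone sample of a group was assumed to vary like the others.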

Additional observations from a re-analysis of the deposited data

How the results depend on the processing

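No member met the criterion in any comparison under the 8 alternatives or with any of the 6 samples left out. The median log2 difference of the members was 0.38 for SePC-La against Laser with a minimum of 5 FPKM, where 4 members were left, and 0.32 for SePC-La against PC-La with quantile normalization. With 1 sample left out it ranged from -0.09 to 0.29 for PC-La against Laser, below 0 without PC-La replicate 2, from 0.11 to 0.33 for SePC-La against Laser, and from -0.02 to 0.29 for SePC-La against PC-La, below 0 without SePC-La replicate 1.

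Of 363 values of single members under the alternatives, 28 changed sign, 20 of them with a sample left out, and the cause was not tested. With quantile normalization, PC-La against Laser was -0.0042 for Kdr, -0.09 for Flt1 and -0.03 for Tie1, SePC-La against Laser was 0.11 for Vwf, and SePC-La against PC-La was 0.02 for Cdh5 and 0.16 for Kdr. With median-ratio scaling, SePC-La against Laser was 0.0019 for Vwf and SePC-La against PC-La was 0.02 for Cdh5. With a sample left out, PC-La against Laser ranged from -0.09 to 0.35 for Emcn, -0.21 to 0.29 for Plvap, -0.09 to 0.40 for Kdr, -0.11 to 0.16 for Flt1 and -0.11 to 0.18 for Tie1. SePC-La against Laser ranged from -0.35 to 0.02 for Eng, -0.13 to 0.29 for Kdr, -0.23 to 0.16 for Vwf and -0.04 to 0.43 for Flt1. SePC-La against PC-La ranged from -0.03 to 0.47 for Plvap, -0.33 to 0.23 for Cdh5, -0.32 to 0.17 for Kdr, -0.07 to 0.41 for Flt1 and -0.02 to 0.23 for Emcn.

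Over all genes, the number past the criterion was 140, 74 and 323 for PC-La against Laser, SePC-La against Laser and SePC-La against PC-La. It was 68, 46 and 186 with a minimum of 5 FPKM, 197, 129 and 488 with a pseudocount of 0.1, and 220, 132 and 472 with voom. With 1 sample left out it ranged from 71 to 664, 60 to 253 and 169 to 584. No member had an adjusted p under 0.05 from limma in any alternative. Over all genes, SePC-La against PC-La had 637 such genes with only the 4 samples compared, 8 with quantile normalization and 3 with a minimum of 5 FPKM, where the fit of all samples had 0, and without Laser replicate 1 the comparison of PC-La with Laser had 312. The lowest adjusted p over the 8 alternatives of SePC-La against PC-La was 0.026 for Vegfa, 0.0189 for Angptl4 and 0.026 for Pdpn (limma). The unadjusted p of Pecam1 in SePC-La against Laser was under 0.05 in 7 of 8 alternatives, the exception being the fit of 4 samples (0.0547 from limma), and with 2 of 6 samples left out. That of Eng in SePC-La against PC-La was so in 5 of 8 and with 3 of 6. Deviations of same-numbered samples from their group means correlated over genes at 0.0862, -0.428 and -0.177 between groups. With 2 samples a group, these values cannot settle whether the replicate numbers pair the samples. With the replicate block the medians of the members were 0.13, 0.23 and 0.17, and Eng had an unadjusted p of 0.0748 from limma.

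The members rested on 30 to 1823 reads a sample, the fewest for Tek.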
